A study of Homo sapiens with 12 samples.

Results

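The genes described here are 10 genes of detoxification and redox defence that are commonly listed as targets of the transcription factor NRF2. They are NQO1, HMOX1, GCLM, GCLC, TXNRD1, SRXN1, AKR1B1, AKR1C1, AKR1C2 and AKR1C3. They were taken by symbol from a table of RNA-seq read counts. All 10 were among the 58721 genes of the table, and all 10 were among the 21013 genes with enough counts to be tested.

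The study asked what genes and pathways answer to AP-1 in Ewing sarcoma, AP-1 being a family of dimeric transcription factors to which the pair of c-Jun and c-Fos belongs. EW8 and TC71 are established Ewing sarcoma cell lines. Both had been infected with 1 lentivirus carrying the linked coding sequences of both proteins behind the doxycycline-responsive TRE3G promoter. Both also carried a lentivirus for the Tet-On 3G transactivator, driven by the EF1 alpha promoter. The 4 groups had 3 libraries each. They were EW8 with vehicle (DMSO), EW8 with doxycycline at 2000 ng/ml, TC71 with vehicle and TC71 with doxycycline at the same dose, all for 72 h. The vehicle groups are labelled as wild type and the doxycycline groups as AP-1 overexpression, although both carry the transgenes. The lines were drug-selected populations, with no cloning step stated. Doxycycline-treated cells without the transgenes were not analysed here, so effects of the drug and of the induced proteins cannot be told apart. The labels do not say whether the 3 libraries of a group came from separate cultures, so p-values measure the spread between these libraries, which may be technical.

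NRF2, the product of NFE2L2, is a leucine zipper factor that is bound in the cytoplasm by KEAP1 and handed to a CUL3 ubiquitin ligase for degradation. Oxidants and electrophiles modify KEAP1, so that NRF2 escapes, pairs with a small MAF protein and binds antioxidant response elements, whose core resembles the site bound by AP-1. BACH1 occupies the same elements as a repressor, with HMOX1 as its best known target. The products of these genes reduce quinones and carbonyls, break down heme, make glutathione and keep thioredoxins and peroxiredoxins reduced.

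The AKR1C genes are shown first because the differences among these close paralogs carry the main result. AKR1C1, AKR1C2 and AKR1C3 lie side by side on chromosome 10, with 4116 bases between AKR1C1 and AKR1C2 and 17322 bases between AKR1C2 and AKR1C3. Their promoters (RefSeq, GRCh38.p14) are given from 250 bases before to 50 bases after the start of the gene, each 5′ to 3′ on the strand of the gene. Capitals mark the bases that differ from AKR1C1 in an alignment. AKR1C1 is on the plus strand at chr10:4963165-4963464, AKR1C2 on the minus strand at chr10:5003808-5004107 and AKR1C3 on the plus strand at chr10:5094164-5094463. These RefSeq starts are not the ends of the GENCODE genes used in the counting, which reach farther upstream, by 162 bases for AKR1C1, 14174 for AKR1C2 and 59060 for AKR1C3. Starts at those outer ends were not examined.
AKR1C1: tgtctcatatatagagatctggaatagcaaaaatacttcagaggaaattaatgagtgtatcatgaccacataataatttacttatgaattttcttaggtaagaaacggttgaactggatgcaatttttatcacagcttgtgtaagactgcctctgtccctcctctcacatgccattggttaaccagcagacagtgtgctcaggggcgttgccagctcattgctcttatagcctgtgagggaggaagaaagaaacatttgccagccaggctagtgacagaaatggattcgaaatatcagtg
AKR1C2: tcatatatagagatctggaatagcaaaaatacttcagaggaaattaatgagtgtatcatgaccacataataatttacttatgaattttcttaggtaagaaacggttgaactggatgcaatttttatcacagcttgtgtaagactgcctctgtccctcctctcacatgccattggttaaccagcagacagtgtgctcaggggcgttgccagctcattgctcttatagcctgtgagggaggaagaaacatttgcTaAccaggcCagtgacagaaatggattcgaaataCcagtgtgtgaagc
AKR1C3: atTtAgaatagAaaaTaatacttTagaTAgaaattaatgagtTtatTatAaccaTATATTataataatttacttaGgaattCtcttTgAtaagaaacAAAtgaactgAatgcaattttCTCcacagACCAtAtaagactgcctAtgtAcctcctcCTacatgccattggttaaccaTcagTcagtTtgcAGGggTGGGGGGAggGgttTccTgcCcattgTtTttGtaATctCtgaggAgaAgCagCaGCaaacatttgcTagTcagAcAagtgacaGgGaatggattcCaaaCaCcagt
The AKR1C1 and AKR1C2 promoters were identical in 288 of 296 aligned columns (97.3%), with gaps counted as differences. AKR1C3 matched AKR1C1 in 225 of 300 columns (75%).

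Promoters of the same length were found for 9 of the 10 genes, HMOX1 being the exception. They were searched on both strands for the core of the antioxidant response element, TGACNNNGC, and for the AP-1 site, TGANTCA. The antioxidant core was in 2 of 9 promoters (22.2%), those of GCLM and TXNRD1, against 13.3% of the 35116 promoters in the table. The AP-1 letters were in 0 of 9 promoters, against 7.71% of all. A match describes letters only, and sites outside this window were not searched. Beside the AKR1C genes, the RefSeq start lay inside the counted gene by 71869 bases for GCLC, 391 for NQO1, 184 for AKR1B1, 170 for SRXN1 and 26 for GCLM. For TXNRD1, AKR1B1 and AKR1C3, 1 of 2 listed promoters was searched, whereas the 35116 include all that are listed per gene. The GCLM promoter is on the minus strand at chr1:93909381-93909680, the TXNRD1 promoter is on the plus strand at chr12:104215529-104215828, and capitals mark the matches.
GCLM: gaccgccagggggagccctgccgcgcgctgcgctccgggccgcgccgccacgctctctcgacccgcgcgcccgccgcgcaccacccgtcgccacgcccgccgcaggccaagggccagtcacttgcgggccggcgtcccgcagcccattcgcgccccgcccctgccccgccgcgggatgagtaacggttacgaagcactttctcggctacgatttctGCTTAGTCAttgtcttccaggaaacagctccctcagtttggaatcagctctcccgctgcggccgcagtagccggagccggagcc
TXNRD1: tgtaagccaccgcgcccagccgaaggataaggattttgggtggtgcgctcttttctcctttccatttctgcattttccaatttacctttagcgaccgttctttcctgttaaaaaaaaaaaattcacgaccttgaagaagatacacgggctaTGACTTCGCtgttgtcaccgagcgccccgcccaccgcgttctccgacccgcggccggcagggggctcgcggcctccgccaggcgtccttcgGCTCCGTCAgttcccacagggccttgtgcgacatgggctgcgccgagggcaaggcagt

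The libraries held 42860665 to 60853649 counts. JUN and FOS rose in both lines, with log2 fold changes of 4.46 and 4.87 (EW8) and of 5.19 and 7.08 (TC71). These counts may include reads of the transgene, so RNA of the transgene and of the native genes was not told apart. All 10 Ewing sarcoma marker genes were above the counting floor in each group. Their summed level, in CPM (counts relative to a library of fixed size), was 2668 to 3156, with CCND1 and CD99 highest. With doxycycline the log2 fold changes in EW8 and TC71 were -1.25 and -1.27 for PAX7, -1.40 and -0.65 for LIPI and -0.83 and -0.93 for BCL11B. They were -0.70 and -0.14 for NKX2-2, -0.54 and -0.36 for CCND1 and -0.19 and -0.30 for STEAP1. KDSR was at -0.12 and -0.28, FLI1 at -0.01 and -0.15, NR0B1 at 0.14 and 0.38 and CD99 at 0.62 and 0.44. Of 4 markers of other cell types (PTPRC, EPCAM, PECAM1 and ALB), 3 were above the floor in EW8 vehicle, EW8 doxycycline and TC71 doxycycline, and 1 was in TC71 vehicle. Their summed level was 66.23 to 77.29 CPM in EW8 vehicle, 107.9 to 117.9 in EW8 doxycycline, 0.2291 to 1.224 in TC71 vehicle and 15.22 to 16.04 in TC71 doxycycline. PTPRC averaged 65.85 CPM in EW8 vehicle and 74.91 in EW8 doxycycline, and was at the floor in both TC71 groups. PECAM1 went from 7.071 to 37.47 CPM with doxycycline in EW8 and from 0 to 3.658 in TC71. EPCAM went from 0.1631 to 0.2844 CPM in EW8 and from 0.7065 to 11.93 in TC71. ALB, the hepatocyte marker, was listed at 0 in every library of 3 groups. It averaged 0.0808 CPM in TC71 doxycycline, with 10, 0 and 0 counts. The part of such cells in the results was not tested. In bulk RNA, a change in RNA per cell and a change in the share of cells that express a gene cannot be told apart. TC71 vehicle replicate 1 stood apart from its group: chi-square per gene was 63.9 and 61.7 against the other two libraries, and 5.4 to 11 for all other pairs within groups. Its share of mitochondrial counts was 2.812%, against 1.224% and 1.278% in the other two, and the TC71 values of the 10 genes, and the TC71 counts of the other lists where they moved, are therefore also given without it.

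The 10 genes did not move as 1 group. In EW8, AKR1C1, AKR1C2, AKR1B1 and SRXN1 rose more than 2-fold with doxycycline, GCLM and TXNRD1 rose slightly, and NQO1 and GCLC fell. In TC71, AKR1C1, AKR1C2, SRXN1 and HMOX1 rose more than 2-fold, AKR1B1 and GCLM rose less, and NQO1 fell. AKR1C3 passed no test of doxycycline in either line. The plot of levels by library shows these patterns gene by gene.

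**Figure D1:**
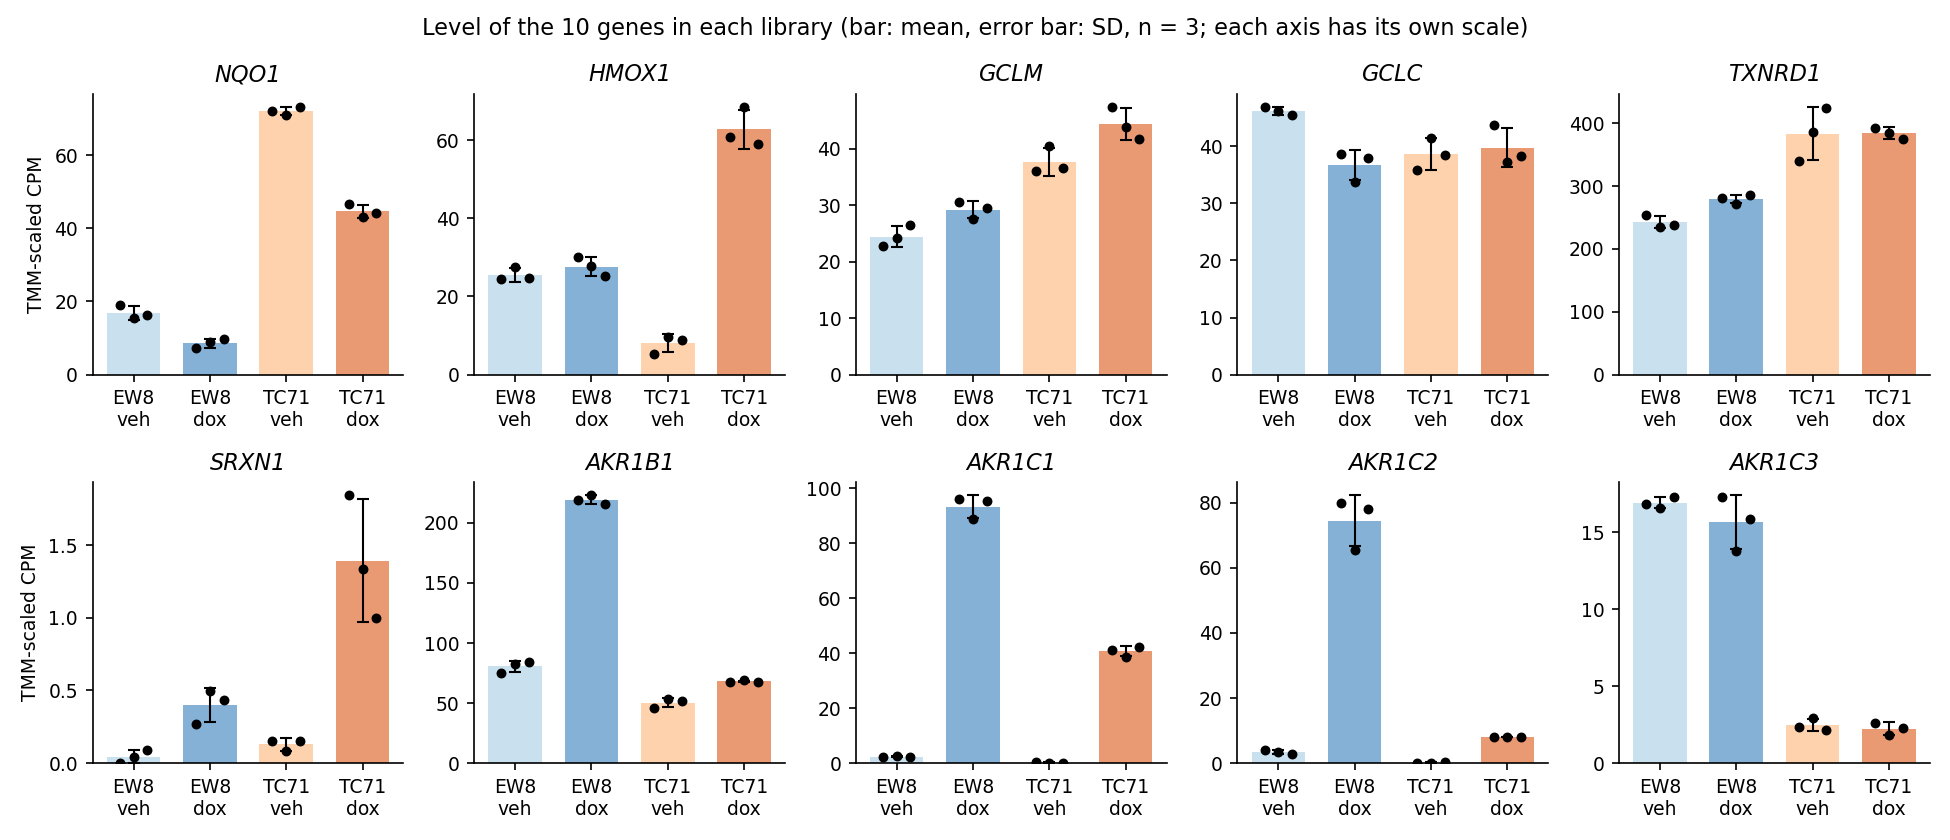
Level of each of the 10 genes in CPM with TMM scaling on linear axes from 0, with 1 point per library, bars for group means and error bars for the SD of 3 libraries; veh is vehicle and dox is doxycycline. AKR1C1 and AKR1C2 stand far above vehicle with doxycycline in both lines, HMOX1 does so in TC71 but overlaps in EW8, and NQO1 is lower with doxycycline in both lines.

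A gene passed when its adjusted p was under 0.05 in edgeR's quasi-likelihood test, with Benjamini-Hochberg adjustment over all genes tested, and was called when its absolute log2 fold change was also over 1. In EW8, 6 of the 10 passed as higher, where 21.9% of all genes tested did, and 2 passed as lower, where 22% did. Of the 10 genes, 4 were called higher in EW8, against 11.4% of all genes, and 0 were called lower, against 3.38%. In TC71, 6 passed as higher (all genes 25.1%) and 1 as lower (all genes 20.4%). There, 4 were called higher (all genes 12.3%) and 0 lower (all genes 3.67%). With DESeq2, and with edgeR at an unadjusted p under 0.05 and the same fold limit, the counts of lower calls were also 0 in each line. The median log2 fold change of the 10 was 0.23 in EW8 and 0.33 in TC71, beside -0.03 and 0.00 over all genes. Without TC71 vehicle replicate 1, the TC71 counts were 5 passed as higher and 2 as lower, with 4 called higher. In that setting 2454 of all 21905 genes tested were called higher and 940 lower, and the shares that passed are not given here. For the lists below, the shares of all genes that passed as higher and lower were likewise 21.9% and 22% in EW8 and 25.1% and 20.4% in TC71. Several list counts lie near these shares.

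The response differed between the lines for 5 of the 10. As a log2 difference, TC71 minus EW8, it passed as higher for 4 genes (all genes 12.2%) and as lower for 1 (all genes 7.07%). Counted with the fold limit, 3 differed upwards (all genes 4.18%) and 1 downwards (all genes 2.87%). The genes were AKR1C1, AKR1C2, HMOX1 and GCLC upwards and AKR1B1 downwards. Without TC71 vehicle replicate 1, AKR1C2 and GCLC no longer passed, and TXNRD1 passed downwards.

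**Figure D2:**
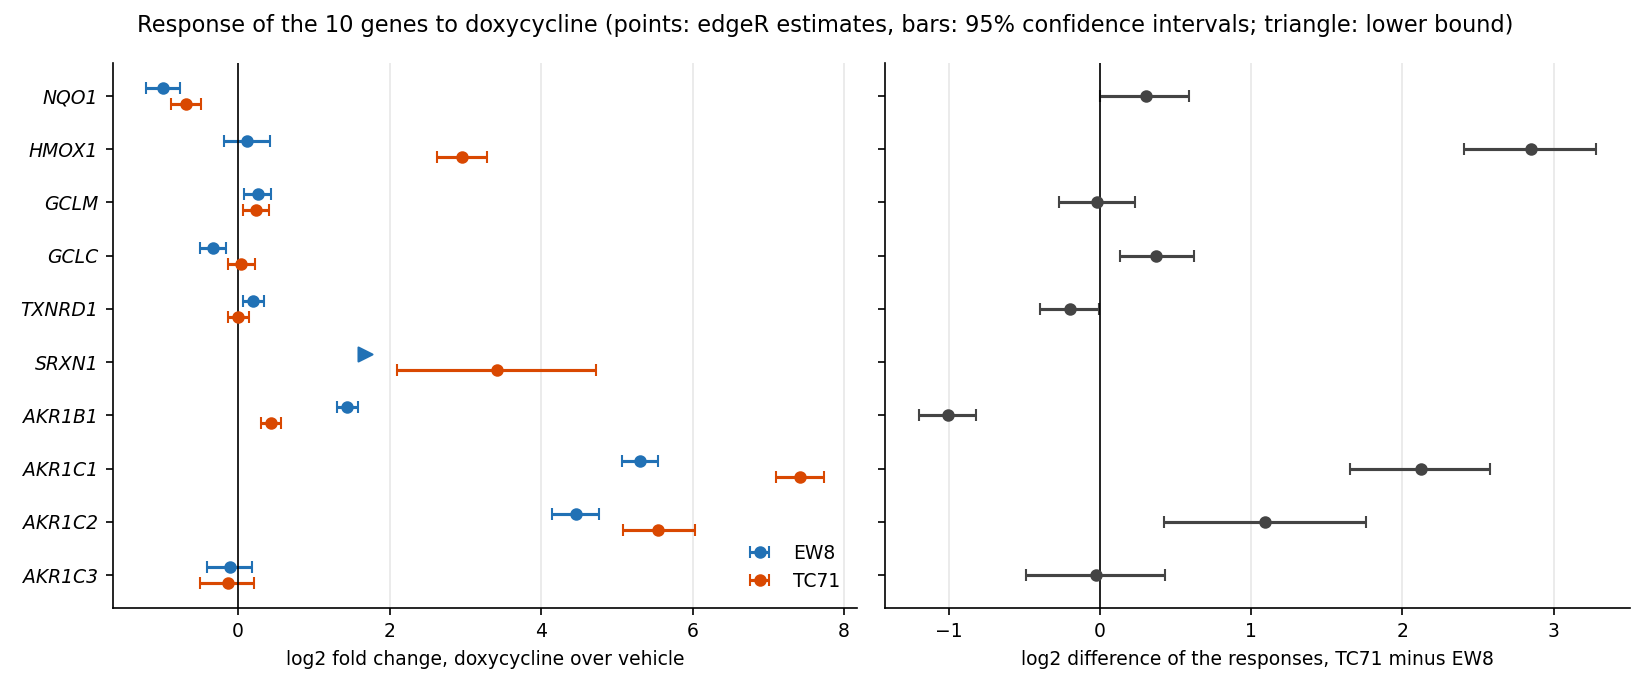
Left, log2 fold change of doxycycline over vehicle for each gene in EW8 and TC71; right, the log2 difference of the responses, TC71 minus EW8. Points are edgeR estimates and bars 95% confidence intervals; the triangle for SRXN1 in EW8 is a lower bound against the counting floor, for which no difference is drawn. AKR1C1 and AKR1C2 lie farthest to the right on the left side, and HMOX1 (2.85) and AKR1B1 (-1.01) have differences of opposite sign whose intervals do not include 0.

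NQO1 encodes the quinone reductase that converts quinones to hydroquinones in a single step and is the usual readout of NRF2 activity. Its gene lies on the minus strand at chr16:69706996-69726951 (hg38). In EW8 its level was 18.99, 15.43 and 16.35 CPM with vehicle and 7.16, 8.834 and 9.683 CPM with doxycycline. In TC71 it was 72.06, 71.10 and 73.19 CPM with vehicle and 46.66, 43.21 and 44.16 CPM with doxycycline. The treated libraries were all below the vehicle libraries of their line, and every TC71 library was above every EW8 library. The log2 fold change of NQO1 was -0.99 in EW8 (SE 0.10, adjusted p = 3.5e-07). In TC71 it was -0.69 (SE 0.10, adjusted p = 7.99e-06). Without TC71 vehicle replicate 1 the TC71 value was -0.77. The difference between the lines was 0.30 (95% interval 0.00 to 0.59, adjusted p = 0.164). An antisense gene covers 17.7% of the exon bases of NQO1, but it had 0 counts in every library.

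HMOX1 encodes heme oxygenase 1, which opens the heme ring to biliverdin, carbon monoxide and iron. Its gene lies on the plus strand at chr22:35380361-35394214. In EW8 it was at 24.45, 27.59 and 24.61 CPM with vehicle and 30.04, 27.77 and 25.14 CPM with doxycycline. TC71 libraries held 5.385, 9.759 and 8.966 CPM with vehicle and 60.80, 68.47 and 58.97 CPM with doxycycline. The EW8 groups overlapped, whereas the TC71 groups lay far apart. Doxycycline thus took TC71 from the lowest to the highest of the 4 groups. HMOX1 rose by 2.96 on the log2 scale in TC71 (SE 0.15, adjusted p = 1.59e-11), which is 7.78-fold. In EW8 the estimate was 0.12 (95% interval -0.19 to 0.42, adjusted p = 0.566). The difference of the responses was 2.85 (SE 0.21, adjusted p = 1.84e-08). Without TC71 vehicle replicate 1, the library with the lowest level, the TC71 response was 2.66 and the difference 2.50.

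Other genes of heme and iron handling were mixed. Of 10 such genes, 3 passed as higher and 3 as lower in EW8, and 3 as higher and 4 as lower in TC71, with medians of 0.01 and -0.17. In TC71 without vehicle replicate 1, 3 were higher and 6 lower, with a median of -0.26. Biliverdin reductases, which take the product of heme oxygenase to bilirubin, were among the higher genes: BLVRB rose by 0.47 in EW8 and by 0.52 in TC71, and BLVRA by 0.35 and 0.57. HMOX2, the constitutive heme oxygenase, rose by 0.43 and 0.46. ABCB6, a porphyrin transporter, fell by 0.87 in EW8 cells and by 1.32 in TC71 cells. The transferrin receptor TFRC fell by 0.51 and 0.28, and ferritin light chain FTL was at 0.03 in EW8 (adjusted p = 0.719) and fell by 0.38 in TC71.

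GCLC and GCLM encode the catalytic and the modifier subunit of glutamate-cysteine ligase, the first and rate-limiting step of glutathione synthesis. GCLM lies on the minus strand at chr1:93885205-93909456 and GCLC on the minus strand at chr6:53497341-53616970. GCLM was at 22.78, 24.19 and 26.46 CPM in EW8 vehicle and at 30.61, 27.59 and 29.53 CPM in EW8 doxycycline. The TC71 levels were 36.05, 40.55 and 36.56 CPM with vehicle and 47.44, 43.87 and 41.77 CPM with doxycycline. The groups did not overlap in either line, but the steps were small. GCLM rose by 0.26 in EW8 (SE 0.08, adjusted p = 0.0199) and by 0.23 in TC71 (SE 0.08, adjusted p = 0.0288). The TC71 value was 0.12 without TC71 vehicle replicate 1 (adjusted p = 0.28). It failed the threshold in 12 of 19 alternative settings in TC71, where adjusted p ran from 0.0183 to 0.28, and in 3 of 19 in EW8, where it ran from 0.00276 to 0.0991.

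GCLC went the other way in EW8. It was at 46.87, 46.22 and 45.45 CPM with vehicle and at 38.56, 33.67 and 37.93 CPM with doxycycline. In TC71 it was at 35.88, 41.42 and 38.49 CPM with vehicle and at 43.73, 37.26 and 38.29 CPM with doxycycline. EW8 vehicle was above all other groups, and the TC71 groups overlapped. GCLC fell by 0.33 in EW8 (SE 0.08, adjusted p = 0.003), and the TC71 estimate was 0.04 (95% interval -0.13 to 0.22, adjusted p = 0.726). The difference of the responses was 0.37 (SE 0.12, adjusted p = 0.0311) but failed the threshold in 10 of 18 alternative settings, and was 0.20 without TC71 vehicle replicate 1 (adjusted p = 0.232), where the TC71 estimate was -0.09 (adjusted p = 0.429). Antisense GCLC-AS1, which shares exon bases with GCLC, had at most 51 counts in a library, and strand was not used in the counting.

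Of 15 other tested genes of glutathione supply and use, 5 passed as higher and 2 as lower in EW8, and 4 as higher and 3 as lower in TC71. Their medians were 0.24 and 0.09. In TC71 the counts became 5 higher and 8 lower, with a median of -0.20, once vehicle replicate 1 was left out. The TC71 vehicle libraries, in order, had 5.155, 28.75 and 121.4 CPM of CHAC1 and 39.43, 98.16 and 95.72 CPM of SLC7A11. Without replicate 1 both passed as lower in TC71, CHAC1 at -1.98 and SLC7A11 at -0.31, and with it neither passed. GPX3, the secreted glutathione peroxidase, rose in both lines, from 1.80 ± 0.523 to 4.287 ± 0.403 CPM in EW8 and from 0.221 ± 0.174 to 2.339 ± 0.667 CPM in TC71 (SD, n = 3). The log2 fold changes were 1.25 and 3.43, and the response was larger in TC71 by 2.18 (adjusted p = 0.00901). GGT1, which cleaves extracellular glutathione, was at the floor in EW8 vehicle with 2, 6 and 0 counts and reached 17 to 42 counts with doxycycline, at least 4.89-fold higher (adjusted p = 0.000178). In TC71 it rose by 1.75 on the log2 scale (adjusted p = 0.00234). The enzyme CHAC2, which degrades glutathione, fell in EW8 by 0.55 and in TC71 by 0.83. Glutaredoxin GLRX fell by 1.22 in TC71 and was at 0.17 in EW8, where it did not pass (adjusted p = 0.253). GPX7, a peroxidase of the endoplasmic reticulum, fell by 0.44 and 0.24. Counts of GGT1, which has near-identical copies, are uncertain.

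The glutathione transferases, which couple glutathione to electrophiles, were mixed. Of 15 tested, 4 passed as higher and 6 as lower in EW8, and 3 as higher and 6 as lower in TC71, with medians of -0.05 and 0.04. With TC71 vehicle replicate 1 left out, 4 were higher and 6 lower in TC71, with a median of -0.04. MGST3, a membrane-bound family member, rose from 24.08 ± 0.415 to 72.21 ± 4.513 CPM in EW8 and from 53.54 ± 1.932 to 110.6 ± 0.702 CPM in TC71. Of the mu class, GSTM1, GSTM2, GSTM4 and GSTM5 fell in both lines, GSTM4 by 1.34 and 0.76, GSTM5 by 1.29 and 1.07 and GSTM2 by 1.01 and 0.80. GSTM3 fell by 0.64 in EW8 (adjusted p = 0.000129) but was at 0.04 in TC71 (adjusted p = 0.839), and these responses differed by 0.68 (adjusted p = 0.00496). GSTO2 rose by 1.71 in EW8 and was at 1.04 in TC71 (adjusted p = 0.0704). MGST1 was at 0.01 in EW8 (adjusted p = 0.991) and rose by 0.49 in TC71. The mu class genes are close paralogs, so their separate counts are uncertain.

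TXNRD1 encodes cytosolic thioredoxin reductase, the selenoenzyme that returns thioredoxin to its reduced form with NADPH. It lies on the plus strand at chr12:104215779-104350305. It was at 254.7, 235.4 and 238.7 CPM in EW8 vehicle and at 281.5, 271.7 and 285.2 CPM in EW8 doxycycline. The TC71 libraries had 339.3, 386.7 and 424.4 CPM with vehicle and 393.0, 384.6 and 374.3 CPM with doxycycline. Every TC71 library was above every EW8 library, and the TC71 groups overlapped. TXNRD1 rose by 0.20 in EW8 (SE 0.07, adjusted p = 0.0177), although its adjusted p was above 0.05 in 2 of 19 alternative settings. In TC71 the estimate was 0.00 (95% interval -0.14 to 0.14, adjusted p = 1). TC71 vehicle replicate 1 was the lowest of its group, and without it TXNRD1 fell in TC71 by 0.16 (adjusted p = 0.0123) and the difference between the lines became -0.41 (adjusted p = 6e-05), against -0.20 (adjusted p = 0.152) with it.

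SRXN1 encodes sulfiredoxin, which repairs overoxidized peroxiredoxins. It lies on the minus strand at chr20:646615-653370. It had few counts: 0, 2 and 5 in EW8 vehicle, 15, 25 and 19 in EW8 doxycycline, 8, 5 and 8 in TC71 vehicle and 76, 56 and 44 in TC71 doxycycline. The treated libraries were above the vehicle libraries in each line. EW8 vehicle was at the floor of 6 counts, which is 3 read pairs because each mate of a pair was counted, and SRXN1 was at least 3.2-fold higher with doxycycline (adjusted p = 0.00216). In TC71 it rose by 3.42 on the log2 scale (SE 0.63, adjusted p = 0.000183), and by 3.48 without TC71 vehicle replicate 1. Another gene annotated on the same strand covers 85% of the exon bases of SRXN1, so most of its reads fell on more than 1 gene and were left out of the counts. That gene itself had 0 to 5 counts per library. The levels of SRXN1 are therefore too low by an unknown factor and are not comparable with those of the other genes.

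The other thioredoxin and peroxiredoxin genes mostly fell in EW8: of 11, 1 passed as higher (all genes 21.9%) and 7 as lower (all genes 22%), with a median of -0.20. In TC71, 4 passed as higher (all genes 25.1%) and 4 as lower (all genes 20.4%), with a median of -0.06. These TC71 counts were 3 and 5 with a median of -0.15 when vehicle replicate 1 was left out. TXNIP, the inhibitor that binds reduced thioredoxin, went from 31.17 ± 2.891 to 3.408 ± 0.981 CPM in EW8 and from 13.18 ± 1.699 to 9.857 ± 0.903 CPM in TC71. The log2 fold changes of TXNIP were -3.19 and -0.42, and the responses differed by 2.77 (adjusted p = 7.18e-08). PRDX5 rose by 0.52 in EW8 and by 1.10 in TC71, whereas the mitochondrial peroxiredoxin PRDX3 fell by 0.40 and by 0.50. TXNRD3, a testis-type thioredoxin reductase, went in opposite directions, with -0.36 in EW8 (adjusted p = 0.0465), 0.52 in TC71 (adjusted p = 0.0063) and a difference of 0.87 (adjusted p = 0.00427). Its TC71 value was 0.27 without TC71 vehicle replicate 1 and no longer passed (adjusted p = 0.0818). Mitochondrial thioredoxin TXN2 fell by 0.30 and 0.43.

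AKR1B1 encodes aldose reductase, which reduces glucose to sorbitol and also lipid aldehydes. It lies on the minus strand at chr7:134442350-134459284. It was at 75.38, 82.42 and 83.87 CPM in EW8 vehicle and at 219.1, 222.9 and 215.5 CPM in EW8 doxycycline. TC71 cells had 45.83, 53.50 and 51.90 CPM with vehicle and 67.75, 68.90 and 67.91 CPM with doxycycline. The 4 groups were fully apart, with both EW8 groups above both TC71 groups. AKR1B1 rose by 1.44 in EW8 (SE 0.06, adjusted p = 1.69e-12), 2.72-fold, and by 0.44 in TC71 (SE 0.06, adjusted p = 1.7e-05), 1.35-fold. The response was smaller in TC71 by 1.01 on the log2 scale (95% interval of the difference -1.20 to -0.82, adjusted p = 2.17e-07). Without TC71 vehicle replicate 1 the TC71 response was 0.29 and the difference -1.20.

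AKR1C1, AKR1C2 and AKR1C3 encode hydroxysteroid dehydrogenases that reduce ketosteroids, prostaglandins and lipid aldehydes. AKR1C1 is best known for inactivating progesterone, AKR1C2 for inactivating dihydrotestosterone, and AKR1C3 for making testosterone and prostaglandin F. The genes lie at chr10:4963253-4983283 (AKR1C1, plus strand), chr10:4987400-5018031 (AKR1C2, minus strand) and chr10:5035354-5107686 (AKR1C3, plus strand).

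AKR1C1 was at 2.233, 2.441 and 2.407 CPM in EW8 vehicle and at 96.14, 88.69 and 95.16 CPM in EW8 doxycycline. In TC71 it was at 0.3437, 0.1449 and 0.2329 CPM with vehicle, which is 18, 9 and 12 counts, and at 41.26, 38.64 and 42.16 CPM with doxycycline. No groups overlapped, and the treated TC71 cells were above the untreated EW8 cells. The log2 fold change of AKR1C1 was 5.30 in EW8 (SE 0.11, adjusted p = 6.91e-17), 39.5-fold, and 7.42 in TC71 (SE 0.15, adjusted p = 1.99e-17), 171-fold. These were places 469 and 214 from the top among the log2 fold changes of all 21013 genes. The difference of the responses was 2.12 (SE 0.22, adjusted p = 1.42e-06). The TC71 response was 7.68 and the difference 2.33 without TC71 vehicle replicate 1.

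AKR1C2 was at 4.082, 3.356 and 2.730 CPM in EW8 vehicle and at 79.90, 65.57 and 77.87 CPM in EW8 doxycycline. The TC71 level was 0.1146, 0.1288 and 0.2717 CPM with vehicle, which is 6, 8 and 14 counts, and 7.951, 8.101 and 8.099 CPM with doxycycline. The order of the groups was that of AKR1C1, with no overlap. AKR1C2 rose by 4.46 in EW8 (SE 0.15, adjusted p = 2.54e-14), 22.1-fold, and by 5.55 in TC71 (SE 0.22, adjusted p = 3.69e-13), 47-fold. The difference of the responses was 1.09 (SE 0.32, adjusted p = 0.0217), but it failed the threshold in 4 of 18 alternative settings. Leaving out TC71 vehicle replicate 1 gave a TC71 response of 5.28 and a difference of 0.76 (adjusted p = 0.133).

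AKR1C3 was at 16.83, 16.58 and 17.30 CPM in EW8 vehicle and at 17.26, 13.77 and 15.85 CPM in EW8 doxycycline. In TC71 it was at 2.329, 2.915 and 2.174 CPM with vehicle and at 2.618, 1.816 and 2.298 CPM with doxycycline. The treated and untreated groups overlapped in each line, and every EW8 library was above every TC71 library. The estimates were -0.11 in EW8 (95% interval -0.41 to 0.18, adjusted p = 0.564) and -0.14 in TC71 (95% interval -0.50 to 0.21, adjusted p = 0.527), the latter -0.27 without TC71 vehicle replicate 1 (adjusted p = 0.248). Per kilobase of exon (RPKM), AKR1C3 had the highest level of the 3 paralogs under vehicle, at 3.73 in EW8 and 0.5456 in TC71. With doxycycline it had the lowest in both lines: 3.448 against 10.65 for AKR1C1 and 11.52 for AKR1C2 in EW8, and 0.4951 against 4.642 and 1.246 in TC71. All annotated exons of AKR1C3 joined have 4532 bases, but its canonical transcript has 1186. These lengths are 8765 and 6543 for AKR1C1 and 6461 and 3215 for AKR1C2, so the size of the gaps depends on the length used.

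The balance of AKR1C1 and AKR1C2 differed between the lines after induction. The ratio of their CPM, not corrected for length and so compared only between libraries, was 1.2, 1.35 and 1.22 in the EW8 doxycycline libraries and 5.19, 4.77 and 5.21 in the TC71 doxycycline libraries, with no overlap. Under vehicle it was 0.547, 0.727 and 0.882 in EW8, and in TC71, where counts were few, 3, 1.12 and 0.857. These are the genes whose promoters, printed above, differ in 8 columns. A link between these promoters and the ratio was not tested, nor was the start that the cells use. Reads that fit both genes were left out of the counts, and the genes differ in how much of the transcript this touches: 12.6% of the 100-base windows of the AKR1C1 transcript, 27.8% of those of AKR1C2 and 7.82% of those of AKR1C3 occur in another gene. Reads could still be placed on the wrong paralog, so the 3 genes were also summed. The sum does not depend on how reads were split among them, so it cannot check the ratio or the separate responses. The sum was 22.39 ± 0.484 CPM in EW8 vehicle, 187.1 ± 13.82 in EW8 doxycycline, 2.923 ± 0.286 in TC71 vehicle and 49.91 ± 2.062 in TC71 doxycycline (SD, n = 3). It rose by 3.06 in EW8 (adjusted p = 6.18e-16) and by 4.09 in TC71 (adjusted p = 7.14e-17), and the difference of 1.02 passed (adjusted p = 2.94e-06). Under vehicle the sum was mostly AKR1C3, at 16.9 CPM in EW8 and 2.473 CPM in TC71. AKR1C3 passed no test of doxycycline, so the size of these responses depends on its level. The TC71 response of the sum was 4.03 and the difference 0.97 without TC71 vehicle replicate 1.

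Genes next to the paralogs, chosen by position alone, were counted as well. Within 250000 bases of the 3 genes the table held 18 genes, themselves included, of which 8 were tested. AKR1C4, the liver member of the family, had 1, 2 and 5 counts in EW8 vehicle and 31, 46 and 27 in EW8 doxycycline, at least 5.56-fold higher (adjusted p = 0.00111), but was at the floor in both TC71 groups. The pseudogene AKR1C7P had 11, 30 and 8 counts in EW8 vehicle and 271, 227 and 156 in EW8 doxycycline, and 0 in all TC71 vehicle libraries against 51, 44 and 48 with doxycycline. It passed in both lines (adjusted p = 3.39e-06 and 5.98e-07), as did the noncoding LINC02561 beside it (adjusted p = 0.00132 and 0.000607). AKR1E2, at the other end, was at -0.27 in EW8 (adjusted p = 0.382) and rose by 1.02 in TC71 (adjusted p = 0.00109). The pseudogene AKR1C6P, between AKR1E2 and AKR1C1, was at -0.65 in EW8 (adjusted p = 0.594). In TC71 it had 0 counts in all vehicle libraries and 8, 0 and 0 with doxycycline. It passed there (adjusted p = 0.0451, and 0.071 with TC71 vehicle replicate 1 left out). Transcripts that rose in both lines thus lay on both sides of AKR1C3. Counts of the pseudogenes, and the low counts of AKR1C4, are uncertain because of their likeness to the other genes of the family.

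The other aldo-keto reductases were mixed. Of the 7 other tested members of the superfamily, AKR1C4 and AKR1E2 included, 1 passed as higher and 1 as lower in EW8, and 3 as higher and 2 as lower in TC71, 1 of the 3 being AKR1C4 at the floor. The medians were -0.19 and -0.23, the latter with bounds used for genes at the floor. AKR1B10, a close relative of AKR1B1, had 0 counts in all TC71 vehicle libraries and 6, 30 and 0 with doxycycline. It passed in TC71 (adjusted p = 0.00368), but 1 treated library was at 0. AKR1A1, the ubiquitous aldehyde reductase, was at 0.14 in EW8 (adjusted p = 0.189) and fell by 0.26 in TC71, and AKR7A2 fell in both lines, by 0.19 and 0.24.

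Genes that control NRF2 or share its sites showed no single direction. Of 10, 6 passed as higher and 1 as lower in EW8, and 5 as higher and 2 as lower in TC71, with medians of 0.52 and 0.23. The TC71 counts without vehicle replicate 1 were 4 higher and 3 lower, with a median of 0.06. NFE2L2 itself was at 0.04 in EW8 (adjusted p = 0.666) and fell by 0.23 in TC71 (adjusted p = 0.00359). KEAP1, its inhibitor, was at 0.12 in EW8 (adjusted p = 0.147) and fell by 0.36 in TC71 (adjusted p = 0.000135). The transcript of NRF2 thus did not pass as higher in either line, and RNA levels do not show the level of the protein. BACH1, the competing repressor, rose from 57.07 ± 1.262 to 102.2 ± 4.992 CPM in EW8 and from 54.78 ± 1.055 to 100.3 ± 3.752 CPM in TC71, by 0.84 and 0.87 on the log2 scale.

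The small MAF genes, whose products pair with NRF2 and BACH1, all rose in both lines. MAFF went from 2.252 ± 0.179 to 22.44 ± 1.964 CPM in EW8 and from 1.715 ± 0.0944 to 2.822 ± 0.623 CPM in TC71, with log2 fold changes of 3.32 and 0.72 and a difference of -2.60. MAFK rose by 1.66 and 2.00, and MAFG by 0.78 and 0.37. The TC71 value of MAFG was 0.17 without TC71 vehicle replicate 1 and no longer passed (adjusted p = 0.0585). The related factor NFE2L1 rose by 0.45 and 0.42. SQSTM1, the autophagy adaptor that sequesters KEAP1, rose by 0.58 in EW8 and was at 0.09 in TC71 (adjusted p = 0.306). The ligase subunit CUL3 fell by 0.21 in EW8 and was at -0.14 in TC71 (adjusted p = 0.133, and 0.0276 without that library, at -0.20), and RBX1 was at -0.18 and -0.09 (adjusted p = 0.0547 and 0.328).

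The efflux transporters, which export glutathione conjugates and drugs, had the highest median of the lists examined, 1.33 in EW8 and 0.95 in TC71. Of 6 genes, 4 passed as higher and 2 as lower in EW8, and 6 as higher in TC71. ABCC3, an exporter of glucuronides and bile salts, went from 0.202 ± 0.123 to 1.546 ± 0.0274 CPM in EW8, and in TC71 from 0, 2 and 6 counts to 224, 249 and 205, at least 49-fold higher (adjusted p = 7.11e-09). ABCC2 rose by 2.86 in EW8 and 1.31 in TC71 (adjusted p = 7.37e-08 and 0.00142), and the breast cancer resistance protein ABCG2 by 2.16 and 4.09 (adjusted p = 4.81e-05 and 5.12e-08). ABCC4 and ABCC5 fell by 0.27 and 0.28 in EW8 and both rose by 0.42 in TC71. All 6 also passed as higher in TC71 without vehicle replicate 1, with a median of 1.08.

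The remaining lists were mixed. Of 7 genes that supply NADPH, 3 passed as higher and 3 as lower in EW8, and 2 as higher and 1 as lower in TC71. Transketolase TKT fell by 0.35 and 0.53. In EW8, IDH1 fell by 0.56 and PGLS rose by 0.57, whereas in TC71 they were at -0.03 (adjusted p = 0.767) and 0.10 (adjusted p = 0.425). Malic enzyme ME1 rose by 0.54 and 0.25, the latter 0.10 without TC71 vehicle replicate 1 (adjusted p = 0.327). The list of other carbonyl, quinone and epoxide enzymes also took in CES1, CES2 and UGDH. Of its 11 tested genes, 4 passed as higher and 4 as lower in EW8, and 2 as higher and 4 as lower in TC71. CES1 and UGDH were among the higher genes in EW8, and UGDH was in TC71. ALDH1A1, a retinal dehydrogenase, moved in opposite directions, from 253.5 ± 10.03 to 541.0 ± 24.56 CPM in EW8 and from 99.57 ± 5.064 to 37.18 ± 2.021 CPM in TC71, with log2 fold changes of 1.09 and -1.42 and a difference of -2.51 (adjusted p = 4.3e-13). PTGR1 rose by 0.99 and 0.83, UGDH rose by 0.37 and 0.54, CBR1 fell by 0.49 and 0.33, and the epoxide hydrolase EPHX1 fell by 0.39 and 0.62. The list of superoxide, catalase and sestrin genes also took in OSGIN1. Of its 6 tested genes, 1 passed as higher (OSGIN1) and 4 as lower in EW8. In TC71, 1 passed as higher (CAT) and 3 as lower. SESN3 fell by 0.89 and 1.35, SESN1 fell by 0.55 and 1.10, and OSGIN1 rose by 0.55 in EW8 and was at -0.22 in TC71 (adjusted p = 0.497). Catalase CAT fell by 0.26 in EW8 (adjusted p = 0.00962) and rose by 0.21 in TC71 (adjusted p = 0.0289), a difference of 0.47 (adjusted p = 0.00408). Its TC71 value was 0.07 without TC71 vehicle replicate 1 (adjusted p = 0.494). Without that library the TC71 counts were 1 higher and 3 lower for NADPH supply, 2 and 6 for the carbonyl list, and 0 and 4 for the superoxide list. SESN2 then passed as lower at -1.08. Its levels in the TC71 vehicle libraries, in order, were 14.03, 31.34 and 69.81 CPM.

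**Figure D3:**
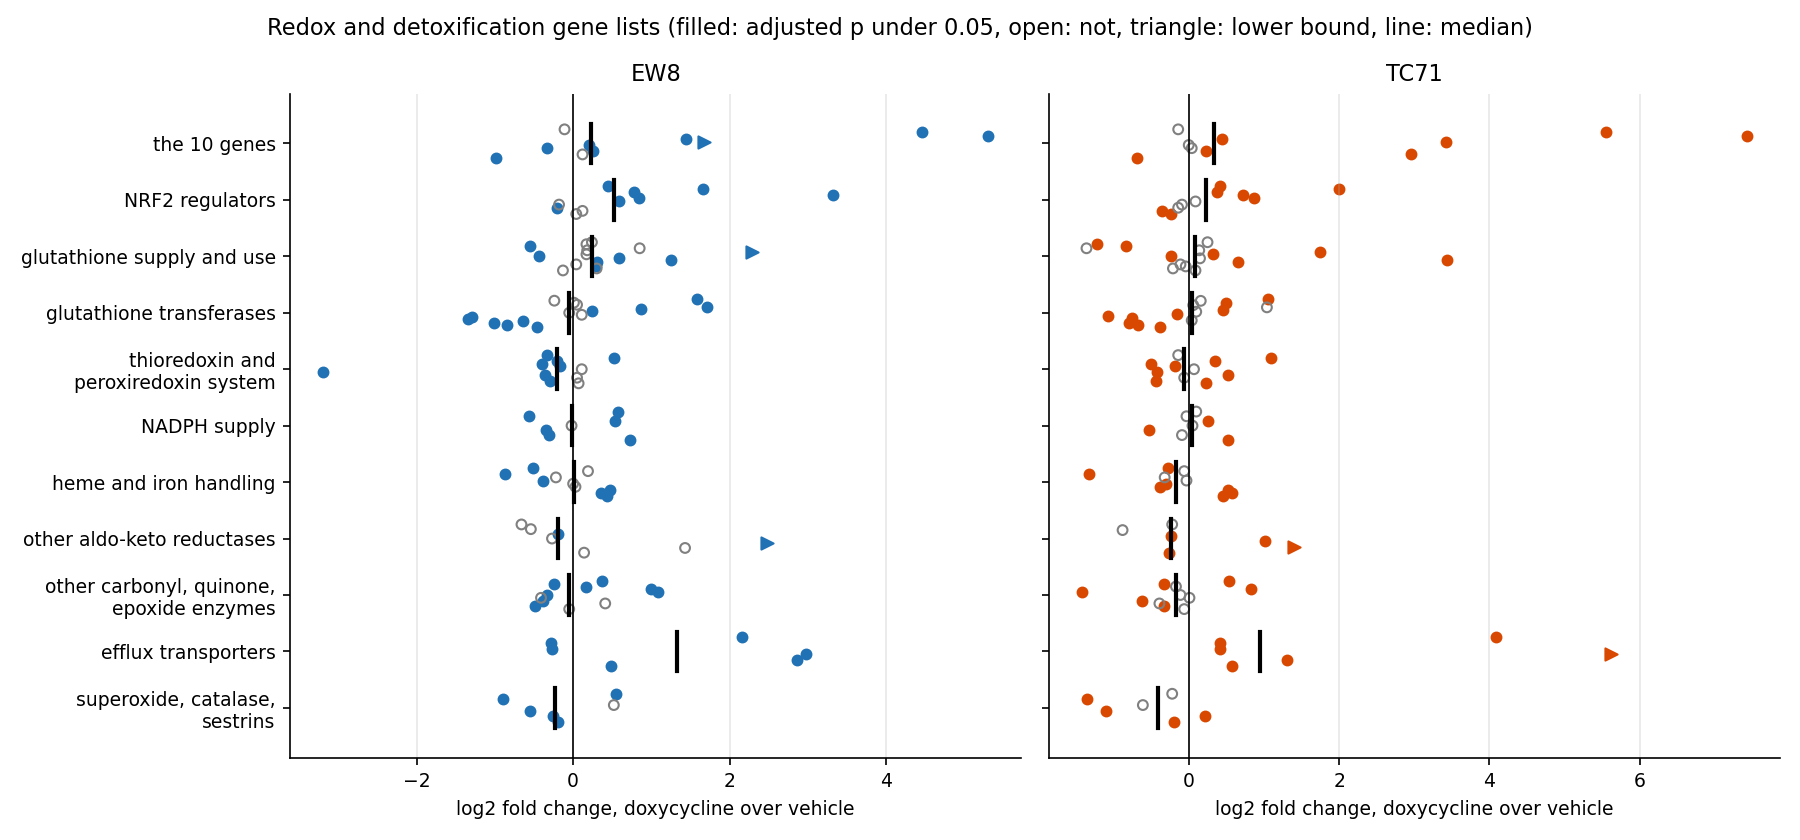
Log2 fold change of doxycycline over vehicle for each tested gene of 11 lists (rows), in EW8 on the left and TC71 on the right. Filled points passed at an adjusted p under 0.05, open points did not, triangles are lower bounds against the counting floor and black lines are list medians, with genes at the floor in both groups left out. The 10 genes have medians of 0.23 and 0.33 with a long right tail, and the efflux transporters lie farthest to the right with 1.33 and 0.95.

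The lines differed in these genes before induction. Under vehicle, TC71 was called higher than EW8 for 1 of the 10 genes (all genes 11.6%) and lower for 4 (all genes 18.9%). NQO1 was higher in TC71 by 2.09 on the log2 scale, 4.26-fold, and AKR1C2, AKR1C1, AKR1C3 and HMOX1 were lower, with log2 differences of -4.30, -3.31, -2.77 and -1.66. Without TC71 vehicle replicate 1 these were 2.20, -3.99, -3.55, -2.61 and -1.34. With doxycycline, TC71 was called higher for 3 (all genes 12.6%) and lower for 4 (all genes 18.4%). NQO1 (2.39), SRXN1 (1.80) and HMOX1 (1.18) were higher, and AKR1C2 (-3.21), AKR1C3 (-2.80), AKR1B1 (-1.68) and AKR1C1 (-1.20) lower. The difference in HMOX1 thus changed sign with induction, and the gap in AKR1C1 narrowed from 9.94-fold to 2.29-fold. Smaller differences that passed under vehicle and doxycycline were GCLM at 0.62 and 0.60 and TXNRD1 at 0.66 and 0.46. AKR1B1 under vehicle was at -0.68 (adjusted p = 3.43e-08). GCLC passed under vehicle at -0.26 (adjusted p = 0.0108) but not under doxycycline at 0.11 (adjusted p = 0.243). The vehicle values without TC71 vehicle replicate 1 were 0.76, 0.85, -0.50 and, for GCLC, -0.10 (adjusted p = 0.321).

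Ordered by mean level, AKR1C1 and AKR1C2 ran from EW8 doxycycline through TC71 doxycycline and EW8 vehicle to TC71 vehicle, with no neighbours overlapping. NQO1, GCLM and TXNRD1 ran by line, with both TC71 groups above both EW8 groups, and AKR1B1 and AKR1C3 ran by line the other way. SRXN1 ran from TC71 doxycycline through EW8 doxycycline and TC71 vehicle to EW8 vehicle. Neighbours in these orders overlapped for HMOX1 (the EW8 groups), TXNRD1 (the TC71 groups), SRXN1 (the vehicle groups), AKR1C3 (both pairs within a line) and GCLC, where TC71 vehicle overlapped with TC71 doxycycline and with EW8 doxycycline.

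To compare genes with each other, CPM was divided by exon length (RPKM). This length joins all annotated exons of a gene and can exceed that of its canonical transcript. It was 3660 against 1361 bases for AKR1B1, 6708 against 3860 for TXNRD1, 2405 against 1554 for HMOX1 and 3254 against 2521 for NQO1. The order and shares of genes in RPKM can therefore depend on the length used. TXNRD1 made up 40.94% of the summed RPKM of the 10 genes in EW8 vehicle and 52.6% in TC71 vehicle. With doxycycline the leading gene in EW8 was AKR1B1, whose share went from 24.89% to 39.65%, while AKR1C1 and AKR1C2 went from 0.3045% and 0.593% to 7.046% and 7.619%. In TC71 TXNRD1 remained first at 42.29% of the summed RPKM, the share of HMOX1 went from 3.048% to 19.27%, and that of NQO1 from 20.51% to 10.14%. AKR1C1 and AKR1C2 reached shares of 3.432% and 0.9209% there. These shares are descriptions, with no test.

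**Figure D4:**
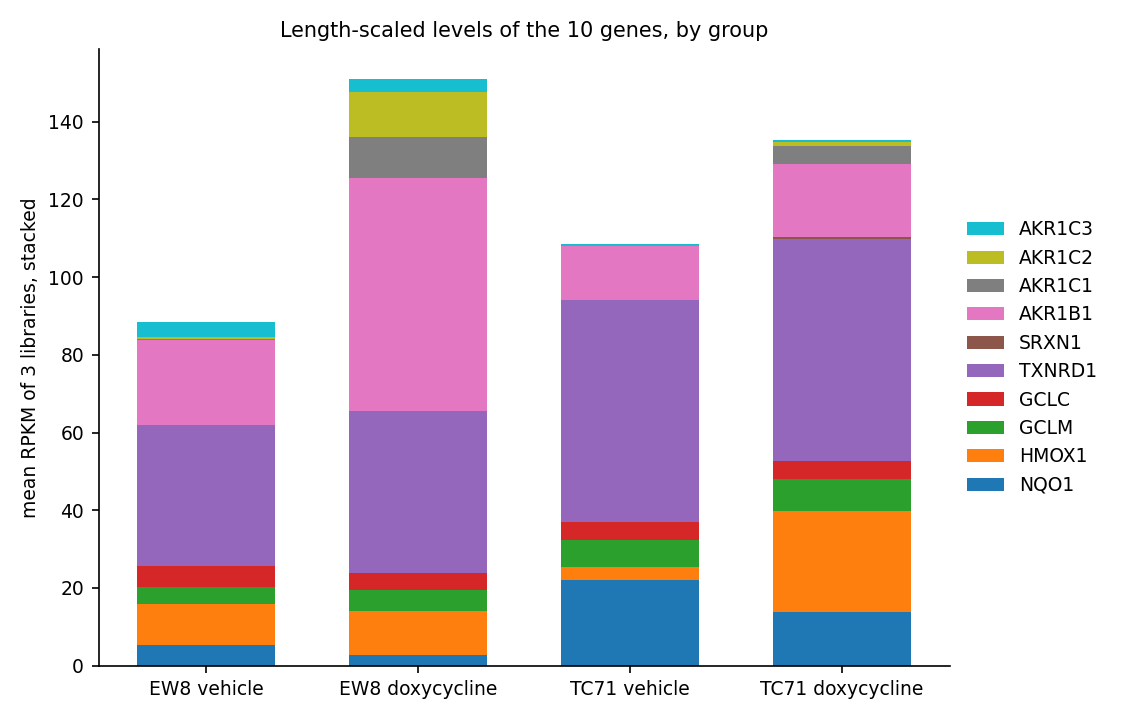
Mean RPKM (CPM per kilobase of exon) of the 10 genes over 3 libraries, stacked for each of the 4 groups, on a linear axis from 0; colours are genes. The TXNRD1 and AKR1B1 segments make up most of each bar, although HMOX1, at 26.09 RPKM, exceeds AKR1B1 in TC71 doxycycline and NQO1, at 22.16 RPKM, does so in TC71 vehicle. The order of segments depends on the exon length used: with the canonical transcript lengths, AKR1B1 would be above HMOX1 and NQO1 in these groups.

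The genes most like each member were sought by Pearson correlation of log2 CPM over the 12 libraries, which share groups, so that a high r mainly reflects the same order of 4 group means. It is given with no test. AKR1C1 was most like NDRG1 (0.998) and RPL23AP82 (0.994), AKR1C2 was most like DLGAP4 and SLC37A1 (0.995 each), and AKR1B1 was most like ARID5A (0.995) and OAS3 (0.994). For HMOX1 they were NID1 (0.984) and ADAMTS7 (0.978), for NQO1 PDHX and TOMM70 (0.996 each), for GCLM SVIL and SNX11 (0.985 each) and for AKR1C3 TSSC2 and PROSER3 (0.996 each). TXNRD1 had MTHFD1L (0.990) and SYTL1 (0.989), SRXN1 had NCKAP5-AS2 (0.976) and ANO10 (0.974), and GCLC, with the narrowest range of levels, had CACNB4 (0.914) and TBC1D7 (0.892). No member was among the nearest genes because these were sought outside the 10. Among the 10, r was 0.95 for AKR1C1 and AKR1C2, 0.92 for GCLM and TXNRD1, -0.34 for GCLM and GCLC and -0.92 for NQO1 and AKR1B1.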

How the data were processed

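RNA of EW8 and TC71 cells was sequenced in 12 libraries as 100-base read pairs (poly(A), stranded). Per the labels and the study's methods, the authors checked reads with FastQC, aligned them with STAR to hg38 (GRCh38) and counted reads per gene with featureCounts 2.0.1 on GENCODE release 29. The deposited values were whole-number counts, not normalized. Per the file header, the counter ran without settings for strand, read pairs, repeated alignments or gene overlaps, so each mate counted on its own and reads shared by genes were left out. The deposited exon length, another column, was used for RPKM alone.

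Counts were tested with edgeR 4.0.16 in R 4.3.3 (quasi-likelihood, 12 libraries in 1 fit with the 4 groups as levels, trimmed mean of M-values, filterByExpr). This left 21013 genes with 99.95% of counts. A gene passed at an adjusted p under 0.05 (Benjamini-Hochberg over the genes tested) and was called at an absolute log2 fold change over 1 as well, as in the study. DESeq2 1.42.0 was an alternative. The code was also run on simulated counts, with changes added to well-counted genes in EW8 doxycycline only. That run does not bear on low counts or on differences between the lines. A group with at most 6 counts in each library was at the floor, which was 0.09663 to 0.1454 CPM. Folds against it are bounds that cover counting error only. Total counts per library were 42860665 to 60853649.

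The members and the lists were chosen with earlier results of these data known, and no list received a test of its own. Named were the 10 genes with JUN and FOS, all regulators and, per other list and line, the 2 highest and 2 lowest genes that passed. For likeness, the 2 non-member genes with the highest Pearson r were named. Genes near the AKR1C cluster were added by position. CHAC1, SLC7A11 and SESN2 were added for their spread over the TC71 vehicle libraries. A gene that the rule names is not reported here. Alternatives were other scalings and filters, DESeq2, the replicate number as a block, each line alone, each library left out and the AKR1C genes summed. SOD2 was not analysed here, and SOD3, GPX2, GGT5, GSTA1, AKR1B15, AKR1D1 and ALDH3A1 were not tested for want of counts. Promoters are from RefSeq (GRCh38.p14). Windows of 100 bases were compared in the GENCODE transcripts given with the genome.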

Additional observations from a re-analysis of the deposited data

Results flagged for a closer look

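The response to doxycycline differed between the lines for 5 of the 10 genes, by an interaction test in edgeR with adjustment over all genes. As log2 differences, TC71 minus EW8, these were 2.85 for HMOX1 (adjusted p = 1.84e-08), 2.12 for AKR1C1 (adjusted p = 1.42e-06), 1.09 for AKR1C2 (adjusted p = 0.0217), 0.37 for GCLC (adjusted p = 0.0311) and -1.01 for AKR1B1 (adjusted p = 2.17e-07). HMOX1 was higher with doxycycline in 3 of 3 TC71 libraries, against overlapping groups in EW8. For AKR1C1, AKR1C2 and AKR1B1 all treated libraries were above all vehicle libraries of their line, so the lines differed in the size and not in the direction of the response. For AKR1C1 and AKR1C2 the TC71 vehicle libraries held 6 to 18 counts, so their folds in TC71 rest on few reads. Leaving out TC71 vehicle replicate 1, the library that stood apart, gave 2.50, 2.33, 0.76, 0.20 and -1.20 in the same order, and AKR1C2 and GCLC no longer passed.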

How the results depend on the processing

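Of the comparisons of counts of members with the alternatives, 284 stayed within 1.5 times, 6 were lower and 6 higher. In EW8, leaving out 1 library at a time gave 1 to 2 genes passed as lower (1 without doxycycline replicate 2, where GCLC was at -0.23) and 0 to 1 called lower. The latter was NQO1, without vehicle replicate 2 or doxycycline replicate 3, and it was also 1 with library size alone. In TC71, 1 to 2 passed as lower, TXNRD1 joining without TC71 vehicle replicate 1. For the difference between lines, 2 to 4 passed as higher (2 without EW8 doxycycline replicate 2 or 3 or TC71 vehicle replicate 1), 1 to 2 passed as lower (2 without TC71 vehicle replicate 1) and 0 to 1 were called lower (0 without EW8 vehicle replicate 1 or TC71 vehicle replicate 2). Under vehicle, 1 to 2 were called higher in TC71, SRXN1 joining without EW8 vehicle replicate 3. Beyond the smaller samples, the cause was not tested.

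Of 915 comparisons of a gene's value, 849 kept direction and side of the threshold, 38 lost the pass, 2 gained it and 26 changed sign. Of those that changed sign, TXNRD1 in TC71 without TC71 vehicle replicate 1 alone passed (adjusted p = 0.0123). TXNRD1 in TC71 was -0.03 with median-ratio size factors, -0.09 with library size alone, -0.01 with no filter, 0.00 with the CPM filter and -0.03 with DESeq2, and -0.16 to 0.04 with 1 library left out. GCLC in TC71 was -0.05 with library size alone and -0.09 to 0.10 with 1 library left out. AKR1C3 in EW8 ran from -0.14 to 0.01 with 1 library left out. The differences between lines with 1 library left out spanned -0.18 to 0.03 for GCLM, -0.69 to 0.91 for SRXN1 and -0.22 to 0.11 for AKR1C3. The responses of AKR1C1, AKR1C2, HMOX1 in TC71, NQO1, AKR1B1 and SRXN1 passed in every alternative run.

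Over all genes tested, deviations of same-numbered libraries from their group means correlated at -0.03 to 0.02. The noise of low counts enters this measure and the labels state no pairing, so a pairing by replicate number is not excluded. A replicate block left 6 passed as higher and 2 as lower in EW8, and 6 and 1 in TC71, and changed no call of the 10 genes. SRXN1 was removed by the CPM filter and has no value there. Low counts limit SRXN1 and the TC71 vehicle levels of AKR1C1 and AKR1C2. Reads lost to overlapping genes or paralogs limit SRXN1 and the AKR1C genes.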
